A study of Mus musculus with 12 samples.

Results

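Hepatocyte growth factor (*Hgf*), its receptor *Met*, the ErbB receptors *Egfr*, *Erbb2* and *Erbb3*, and the EGF family ligands *Hbegf*, *Areg*, *Ereg* and *Nrg1* were followed in satellite cells with and without *Cxcr4*. The 9 genes were picked by symbol from the 55401 genes of the deposited count table. In the GENCODE M21 annotation of GRCm38, the receptor genes lie at chr6:17463800-17573980 (*Met*), chr11:16752203-16918158 (*Egfr*), chr11:98412470-98437716 (*Erbb2*) and chr10:128567523-128589652 (*Erbb3*), the ligand genes *Hgf*, *Areg* and *Ereg* on chromosome 5 and *Nrg1* on chromosome 8. Each symbol had 1 row, and all 9 genes were among the 25771 that passed the filter on low counts.

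Satellite cells are the Pax7-expressing stem cells of skeletal muscle. HGF is stored in the muscle matrix as an inactive precursor, is cut into its active form by serine proteases after injury, and signals through the receptor tyrosine kinase MET to bring satellite cells out of quiescence. The EGF family ligands are made as membrane-bound precursors that are released by ADAM proteases. EGFR binds HB-EGF, amphiregulin and epiregulin, ERBB3 binds the neuregulins but has little kinase activity of its own, and ERBB2 has no known ligand and serves as the partner of the other receptors.

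All mice were homozygous for the floxed *Cxcr4* allele (CXCR4 FL/FL), carried the Pax7-ZsGreen reporter that marks satellite cells green, and received 80 mg/kg tamoxifen on 5 days. In general, the study's methods then kept mice on tamoxifen diet until the end of an experiment. KO mice carried in addition Pax7-creERT2, which deletes the floxed allele in Pax7-expressing cells, and WT mice did not, so the groups also differ in the presence of Cre. ZsGreen+ cells of both hind limbs were sorted and used at once (quiescent, 4 WT and 4 KO libraries) or after overnight culture in growth medium (activated, 2 WT and 2 KO libraries). The study digested the muscle with enzymes before sorting and detected MYOD1 protein in nearly all freshly isolated cells of both genotypes. Quiescent levels given here are those after this isolation. The question was how loss of this chemokine receptor changes gene expression before and during activation. The study used adult mice of 3 to 4 months and counts its samples as independent mice in general. The labels tie no library to a mouse and give no sex, so p-values measure the spread between these libraries, which may in part be technical.

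Counts per library ranged from 12775593 to 23717013 in quiescent and from 3172164 to 5427280 in activated cells, so low genes are measured with less precision after culture. *Cxcr4* itself was at 59.1 to 112 CPM (reads of the gene per library total, as scaled by TMM) in WT and 12.5 to 21.2 in KO quiescent libraries (log2 fold change -2.24 ± 0.31 SE, adjusted p = 0.00477), and at 14.5 and 33.3 against 5.39 and 13.7 CPM in activated libraries (adjusted p = 0.381). Further properties changed with activation. A ribosomal RNA gene (CT010467.1) took 0.295 to 0.807% of the counts in quiescent and 11.5 to 40.3% in activated libraries. *Xist* averaged 626 (WT) and 742 CPM (KO) in activated and 4.04 and 3.14 CPM in quiescent cells, while *Ddx3y* of the Y chromosome averaged 461 and 415 CPM in quiescent and 0.245 and 1.14 CPM in activated cells, so state and the sex of the mice cannot be told apart. Summed levels of 4 muscle fibre markers were 200.5 to 706 CPM in quiescent and 5233 to 12786 CPM in activated libraries. The 8 satellite cell markers, including *Pax7* and *Myf5*, were present in every group and summed to 3178 to 5210 CPM in quiescent and 1047 to 1631 CPM in activated libraries. In bulk libraries, fewer cells of a type and less RNA per cell cannot be told apart.

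Levels were compared between the genes as CPM per kilobase of annotated exon. In WT quiescent cells *Hbegf* had the highest level at 35.8 ± 3.27 CPM per kilobase (SD, n = 4), followed by *Egfr* at 15.01 ± 1.82. *Met* at 7.13 ± 2.21 and *Erbb2* at 5.68 ± 0.63 overlapped between libraries. *Erbb3* at 1.86 ± 0.49, *Areg* at 1.60 ± 0.53 and *Ereg* at 1.01 ± 0.37 formed the next rank, in which each overlapped its neighbour. *Hgf* at 0.316 ± 0.194 and *Nrg1* at 0.21 ± 0.079 were lowest and also overlapped. KO quiescent cells had the same order apart from the last pair, with *Nrg1* at 0.21 ± 0.11 and *Hgf* at 0.133 ± 0.084, and there the ranges of *Egfr* and *Met* overlapped as well. The most abundant ligand and the most abundant receptor of the 9 genes before culture were thus *Hbegf* and *Egfr*.

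After overnight culture *Met* had the highest mean, at 40.1 ± 0.92 CPM per kilobase in WT and 37.4 ± 16.3 in KO cells (SD, n = 2 each). *Hbegf* came next with 32.7 ± 34.5 in WT, where its 2 libraries lay on either side of quiescent cells, and 9.17 ± 2.29 in KO. *Erbb2* (5.33 ± 1.73 in WT and 4.70 ± 2.00 in KO) then ranked above *Egfr* (3.51 ± 0.59 and 3.83 ± 0.83), and in KO the ranges of these receptors overlapped. The FPKM values that the authors deposited for each group, as pooled values without a spread, gave *Met* 6.91 in WT quiescent and 41.0 in WT activated cells, and *Egfr* 14.6 and 3.57.

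**Figure D1:**
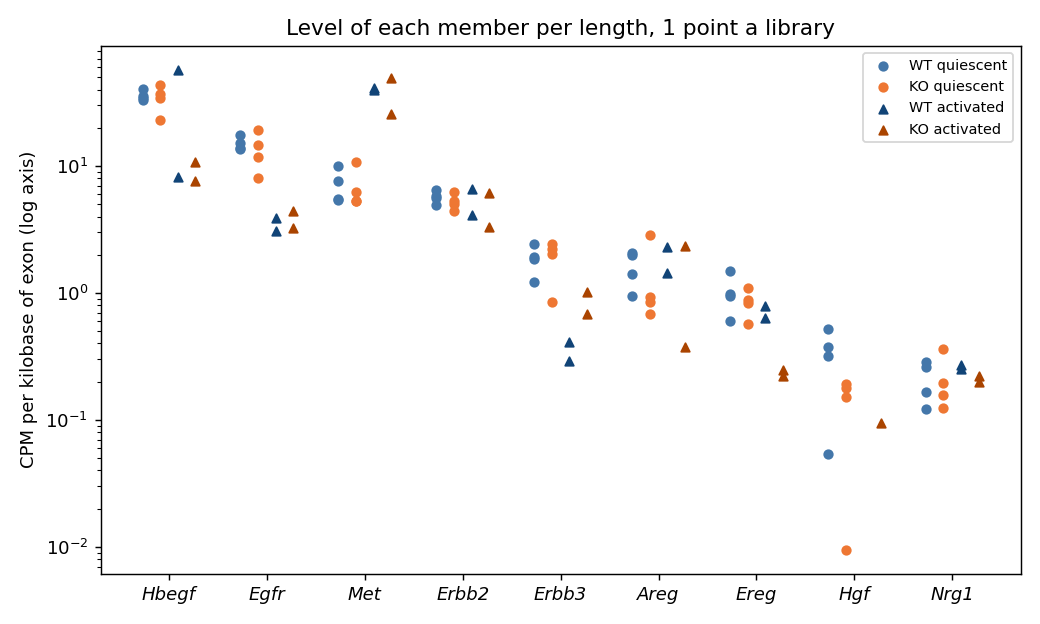
CPM per kilobase of annotated exon (log axis) for the 9 genes, ordered by their mean in WT quiescent cells, with 1 point for each library and a colour for each group. Libraries at 0 counts, which occur for *Hgf* in 3 activated libraries, are not drawn. *Hbegf* and *Egfr* lead in quiescent cells, and *Met* has the highest mean after culture.

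For the comparison of states, a gene was called when the adjusted p of edgeR's quasi-likelihood test was under 0.05, the absolute log2 fold change over 1 and the mean normalized count over 10. In WT cells 1 of the 9 genes was called higher on activation, against 9.65% of all genes tested, and 3 were called lower, against 16.5%. In KO cells 1 was called higher, against 11.1%, and 3 lower, against 18.5%. The median log2 fold change of the 9 genes was -0.12 in WT and -1.14 in KO cells, and that of all genes tested was -0.92 and -0.96.

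Among the receptors, *Met* rose. In quiescent cells it stood at 41.5, 42.1, 58.1 and 77.4 CPM in WT and at 41.1, 48.0, 40.7 and 81.9 CPM in KO libraries, and in activated cells at 303 and 313 CPM in WT and 376 and 199 CPM in KO libraries. All activated libraries lay above all quiescent ones, and the lowest activated library was a KO library. The log2 fold change was 2.49 ± 0.32 (SE; 5.62-fold, adjusted p = 8.08e-06) in WT and 2.44 ± 0.32 (5.43-fold, adjusted p = 8.83e-06) in KO cells. It was called under all 22 alternatives in both genotypes.

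*Egfr*, the receptor for most of the EGF ligands followed here, fell. Its quiescent libraries held 173, 153, 156 and 198 CPM in WT and 90.5, 133, 166 and 218 CPM in KO, and its activated libraries 44.4 and 35.0 CPM in WT and 50.1 and 36.7 CPM in KO. The states did not overlap in either genotype, and the spread was wider among KO than among WT quiescent libraries. The log2 fold change was -2.09 ± 0.33 (SE; to 0.235 times, adjusted p = 7.36e-05) in WT and -1.81 ± 0.32 (to 0.285 times, adjusted p = 0.000244) in KO cells, called under all 22 alternatives in both.

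*Erbb2*, the partner receptor, stood at 29.03, 25.6, 30.1 and 33.5 CPM in WT quiescent, 32.3, 22.9, 27.5 and 26.4 CPM in KO quiescent, 21.4 and 34.2 CPM in WT activated and 31.9 and 17.1 CPM in KO activated libraries. The states overlapped. The log2 fold change was -0.11 (95% interval -0.73 to 0.51) in WT and -0.16 (-0.78 to 0.46) in KO cells, with adjusted p = 0.787 and 0.679, and its sign turned when single activated libraries were left out. *Erbb2* shares exon bases with *Mien1* on the opposite strand, which had 218 counts summed over each quiescent group against 2300 (WT) and 2175 (KO) for *Erbb2*. In the activated groups *Mien1* had 42 (WT) and 64 (KO) counts against 209 and 199 for *Erbb2*, a larger part than before culture. Whether the counting used strand is not given in the sources used here.

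*Erbb3*, the neuregulin receptor, was at 11.6, 14.6, 11.1 and 7.32 CPM in WT quiescent, 14.6, 12.3, 13.4 and 5.10 CPM in KO quiescent, 2.45 and 1.75 CPM in WT activated and 4.11 and 6.16 CPM in KO activated libraries. In WT the states did not overlap, and in KO the higher activated library exceeded the lowest quiescent one. The log2 fold change was -2.35 ± 0.53 (SE; to 0.196 times, adjusted p = 0.00212) in WT cells. In KO cells it was -1.14 ± 0.46 and was not called (adjusted p = 0.0647). Without KO quiescent library 4, the lowest of its group, *Erbb3* was called in KO cells too (log2 fold change -1.37, adjusted p = 0.0150). The WT fall rests on 15 and 4 counts in the activated libraries.

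*Erbb3* and *Sox10* are also expressed by Schwann cells, and the 3 Schwann cell markers used, *Sox10*, *S100b* and *Mbp*, were detected in every group. In WT activated library 2, *Sox10* and *S100b* had no count. Their summed level was 128 to 177 CPM in WT quiescent, 101 to 263 CPM in KO quiescent, 50.2 and 28.5 CPM in WT activated and 28.3 and 70.9 CPM in KO activated libraries. Of the 3 markers, 2 were called lower on activation in WT and 3 in KO cells, with a median log2 fold change of -1.90 in WT and -2.22 in KO. Among all genes tested, 16.5% and 18.5% were called lower, with medians of -0.92 and -0.96. *Mbp*, a protein of the myelin sheath, averaged 133 CPM in WT quiescent and 35.1 CPM in WT activated cells. *Sox10* averaged 11.2 and *S100b* 5.42 CPM in WT quiescent cells, so the sums mainly follow *Mbp*. The order of the libraries by marker sum and by *Erbb3* matched in part. KO quiescent library 4 was lowest in both of its group and KO activated library 2 highest in both of its state, but WT quiescent library 3 had the lowest sum of its group and library 4 the lowest *Erbb3*, and WT activated library 1 had a higher sum than KO activated library 1 (50.2 against 28.3 CPM) with less *Erbb3* (2.45 against 4.11 CPM). The part of these transcripts in the *Erbb3* result was not tested.

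**Figure D2:**
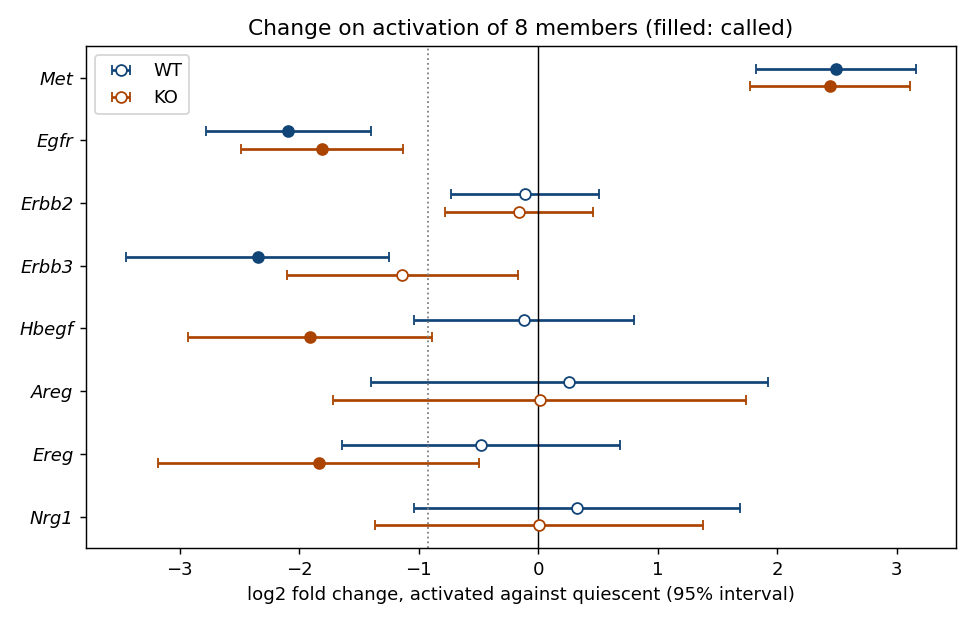
Log2 fold change of activated against quiescent cells for 8 of the 9 genes in WT (blue) and KO (orange) cells with 95% intervals, filled where called, with a dotted line at the median of all genes in WT (-0.92). *Met* lies above 0 and *Egfr* below it in both genotypes; *Hgf* is left out because WT activated libraries held no count of it.

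*Met*, *Egfr* and *Erbb2* are a receptor that rose, one that fell and one that was not called, and the bases upstream of their first annotated starts are given to set them side by side. RefSeq windows of 300 bases around gene starts (GRCm38.p6, 250 before to 50 after the start) were at hand for 5 of the 9 genes, in 6 windows. Capitals mark the GC box GGGCGG or its complement CCGCCC, a letter string bound by Sp1 family factors.
Met, chr6:17463707-17463799, plus strand: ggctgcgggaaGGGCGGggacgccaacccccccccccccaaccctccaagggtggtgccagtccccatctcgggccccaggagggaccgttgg
Egfr, chr11:16751953-16752202, plus strand: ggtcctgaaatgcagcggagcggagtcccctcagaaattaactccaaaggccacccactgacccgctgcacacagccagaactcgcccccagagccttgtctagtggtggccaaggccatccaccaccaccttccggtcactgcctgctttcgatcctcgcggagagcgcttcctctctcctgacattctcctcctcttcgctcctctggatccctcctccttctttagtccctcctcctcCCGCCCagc
Erbb2, chr11:98412234-98412469, plus strand: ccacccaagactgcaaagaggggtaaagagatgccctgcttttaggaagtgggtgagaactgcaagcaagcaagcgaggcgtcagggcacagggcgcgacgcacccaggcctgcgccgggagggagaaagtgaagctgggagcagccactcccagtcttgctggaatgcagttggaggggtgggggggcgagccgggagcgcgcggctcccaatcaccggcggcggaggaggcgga

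The letters of 5 motifs were searched on both strands of the 300-base windows. The GC box (GGGCGG) occurred 3 times for *Met*, once for *Egfr*, 2 times for *Areg* and not for *Erbb2* or *Hgf*, and 35.7% of all 32851 windows held it. The AP-1 letters TGANTCA occurred once, in the *Met* window, and 7.81% of all windows held them. The match is shown in capitals, on the plus strand. It lies downstream of the first annotated *Met* start and upstream of the RefSeq start on which the window was built.
Met, chr6:17463892-17463921: tgttgcccggcTGAGTCAcgggccgggcag
The *Areg* window was the one with the cyclic AMP response element TGACGTCA, held by 1.79% of all windows, and with the TATA box TATAAA, held by 13.6%. The E-box CANNTG occurred 2 times each for *Areg* and *Met*, once for *Erbb2*, 2 times in 1 of the *Hgf* windows and not for *Egfr*, and 72.3% of all windows held it. No match overlapped a match of another of these motifs in the 6 windows. These are matches of letters, and the libraries hold no measurement of binding.

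Among the ligands, *Hgf* was low before culture and fell in WT cells. It had 71, 32, 62 and 8 counts (3.71, 2.27, 2.72 and 0.385 CPM) in WT quiescent and 21, 1, 33 and 27 counts (1.10, 0.0683, 1.37 and 1.28 CPM) in KO quiescent libraries. No count was seen in either WT activated library, and 0 and 3 counts (0 and 0.684 CPM) in the KO activated libraries. A count of 0 in both WT activated libraries allows a level of up to 0.357 CPM (3 counts over the group, counting error only). This limit is 6.36-fold below the WT quiescent mean of 2.27 CPM, without the spread of the quiescent libraries. WT quiescent library 4, at 0.385 CPM, lay just above the limit. *Hgf* was called lower in WT by edgeR (adjusted p = 0.0245). The call was lost without WT activated library 1 (adjusted p = 0.215) or library 2 (0.0905). In KO cells the 3 counts gave a ratio of 0.350 to quiescent cells with an exact 95% counting interval of 0.0706 to 1.06, and *Hgf* was not called (adjusted p = 0.398). Lower levels were not detectable at this depth.

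*Hbegf*, the ligand with the highest level, was at 165, 159, 173 and 195 CPM in WT quiescent and 166, 111, 210 and 178 CPM in KO quiescent libraries. After culture it was at 276 and 39.9 CPM in WT and 52.1 and 36.5 CPM in KO libraries. The WT activated libraries lay above and below all quiescent ones, and both KO activated libraries lay below them. In KO cells *Hbegf* fell (log2 fold change -1.91 ± 0.49 SE, to 0.266 times, adjusted p = 0.00527). That call was lost without KO activated library 2 (log2 fold change -1.66, adjusted p = 0.0643). In WT cells the log2 fold change was -0.12 (95% interval -1.04 to 0.80, adjusted p = 0.845), and library 1 decided it. Without it *Hbegf* was called lower (log2 fold change -2.04, adjusted p = 0.000882), and without library 2 the value was 0.73 and was not called.

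The activated WT library with high *Hbegf* also had the highest endothelial signal of the activated libraries. The 5 endothelial markers summed to 464 CPM in it, to 81.4 CPM in the other WT activated library, and to 70.1 and 279 CPM in the KO activated libraries. The KO library with 279 CPM of these markers had the lowest *Hbegf* of the state. Quiescent libraries held 345 to 818 CPM (WT) and 186.5 to 801 CPM (KO) of the endothelial markers, and none of the 5 was at 0 in any group. The part of endothelial transcripts in the *Hbegf* values was not tested.

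*Areg*, *Ereg* and *Nrg1* stayed at low levels. *Ereg*, the gene for epiregulin, was at 3.92, 2.48, 4.08 and 6.17 CPM in WT quiescent, 2.35, 3.42, 3.61 and 4.53 CPM in KO quiescent, 3.27 and 2.63 CPM in WT activated and 1.03 and 0.91 CPM in KO activated libraries. Both KO activated libraries, with 4 counts each, were below all others. *Ereg* fell in KO cells (log2 fold change -1.84 ± 0.64 SE, adjusted p = 0.0336) and was not called in WT cells (-0.48 ± 0.56, adjusted p = 0.504). The KO call held in 14 of 22 alternatives, whose adjusted p ranged from 0.0270 to 0.226. It was lost without KO quiescent library 3 (0.0539) or 4 (0.0598) and without KO activated library 1 (0.181) or 2 (0.226).

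*Areg*, the gene for amphiregulin, ranged from 0.456 to 3.48 CPM over the 12 libraries and *Nrg1*, a ligand of ERBB3, from 1.25 to 3.76 CPM, and for both the states overlapped in each genotype. The log2 fold changes of *Areg* were 0.26 in WT (95% interval -1.40 to 1.92) and 0.01 in KO cells (-1.71 to 1.74), and those of *Nrg1* 0.32 (-1.04 to 1.69) and 0.01 (-1.37 to 1.38). The adjusted p was 0.811 and 0.993 for *Areg* and 0.709 and 0.995 for *Nrg1*. Activated libraries held 2 to 17 counts of these genes. Changes of the size seen for *Met* and *Egfr* lie outside the intervals, and smaller ones were not detectable at this depth.

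**Figure D3:**
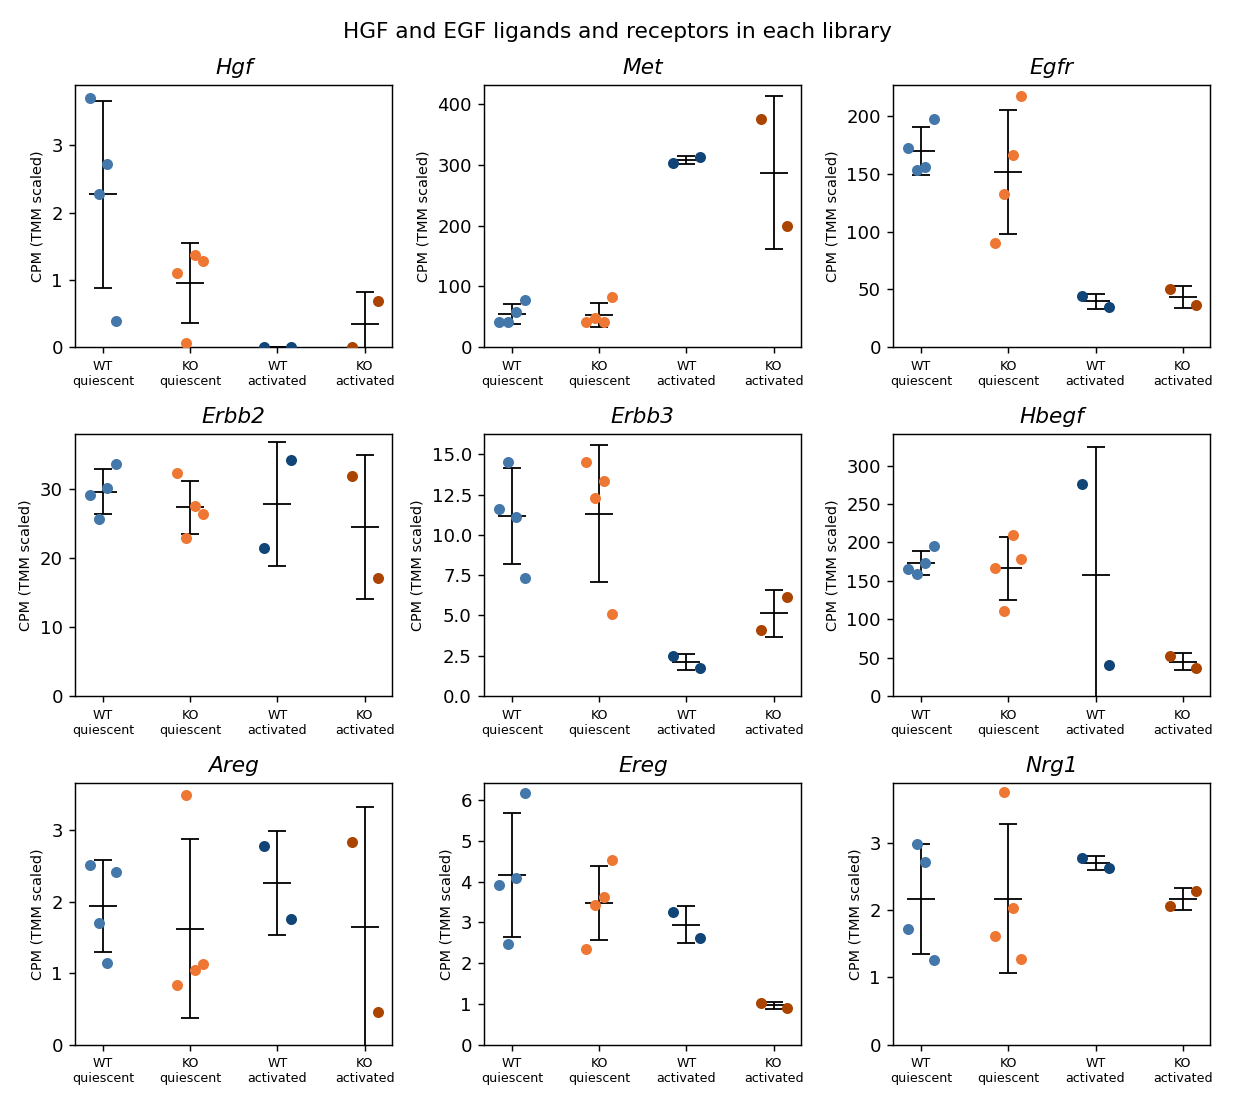
TMM-scaled CPM of the 9 genes in each of the 12 libraries by group, with the mean and SD (n = 4 quiescent, n = 2 activated; bars cut at 0). The activated libraries stand above the quiescent ones for *Met* and below them for *Egfr*, while the 2 WT activated libraries of *Hbegf* lie far apart at 276 and 39.9 CPM.

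The second question was what loss of *Cxcr4* changed in these genes. In quiescent cells 0 of the 9 genes were called by edgeR between KO and WT, 0 had an unadjusted p under 0.05 and 0 were called by DESeq2 on all libraries. Of all genes, edgeR called 0.0155% (4 genes), 1.74% had an unadjusted p under 0.05 and DESeq2 called 5. The log2 fold changes of *Met* (-0.05, 95% interval -0.62 to 0.52), *Egfr* (-0.16, -0.66 to 0.34), *Erbb2* (-0.12, -0.60 to 0.37), *Erbb3* (0.02, -0.68 to 0.72) and *Hbegf* (-0.06, -0.80 to 0.69) had intervals that stayed within a 2-fold change either way. *Hgf* differed most in size, with a log2 fold change of -1.23 ± 0.83 (SE; 95% interval -2.98 to 0.52, adjusted p = 1). Its range of 0.0683 to 1.37 CPM in KO overlapped 0.385 to 3.71 CPM in WT libraries. The values of *Areg*, *Ereg* and *Nrg1* lay between -0.27 and -0.0022, each with an adjusted p of 1.

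In activated cells 0 of the 9 genes were called by edgeR between KO and WT, 2 had an unadjusted p under 0.05, and DESeq2 on all libraries called 1. Of all genes, edgeR called 0.0504% (13 genes), 8.37% had an unadjusted p under 0.05 and DESeq2 called 144. *Met* (log2 fold change -0.10, 95% interval -0.90 to 0.70) and *Egfr* (0.12, -0.61 to 0.85) overlapped between the genotypes. *Hbegf* had the largest fold change of the genes with counts in every library, -1.85 ± 0.53 (SE; adjusted p = 0.249 by edgeR and 0.0428 by DESeq2), and its groups overlapped. WT activated library 1 decided this value. Without that library it was 0.06, and without WT activated library 2 it was -2.71 with an adjusted p of 0.000706. *Ereg* was lower in both KO than in both WT libraries (log2 fold change -1.62 ± 0.73, adjusted p = 0.581), and *Erbb3* was higher in both KO libraries (1.23 ± 0.59, adjusted p = 0.595). *Nrg1*, at 2.78 and 2.63 CPM in WT and 2.06 and 2.28 CPM in KO libraries, also did not overlap and was not called. Groups of 2 libraries often separate by chance alone, and the share of all genes that did so was not counted. The separation of *Ereg*, *Erbb3* and *Nrg1* is therefore not read as an effect of genotype.

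A difference between the genotypes in their change on activation was tested as an interaction. edgeR called 0% of all genes and 0 of the 9, with 1 of the 9 and 1699 of all genes (6.59%) at an unadjusted p under 0.05. DESeq2 on all libraries called 47 genes, 0 of them among the 9. For *Erbb3*, called in WT alone, the interaction was 1.21 ± 0.68 on the log2 scale (adjusted p = 0.821). For *Hbegf*, called in KO alone, it was -1.79 ± 0.63 (adjusted p = 0.590), 0.12 without WT activated library 1, and -2.65 with an adjusted p of 0.00578 without library 2. The adjusted p was 0.855 for *Ereg* and 0.780 for *Hgf*. A call in one genotype and not in the other was therefore not shown to be a difference between them for these 4 genes.

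**Figure D4:**
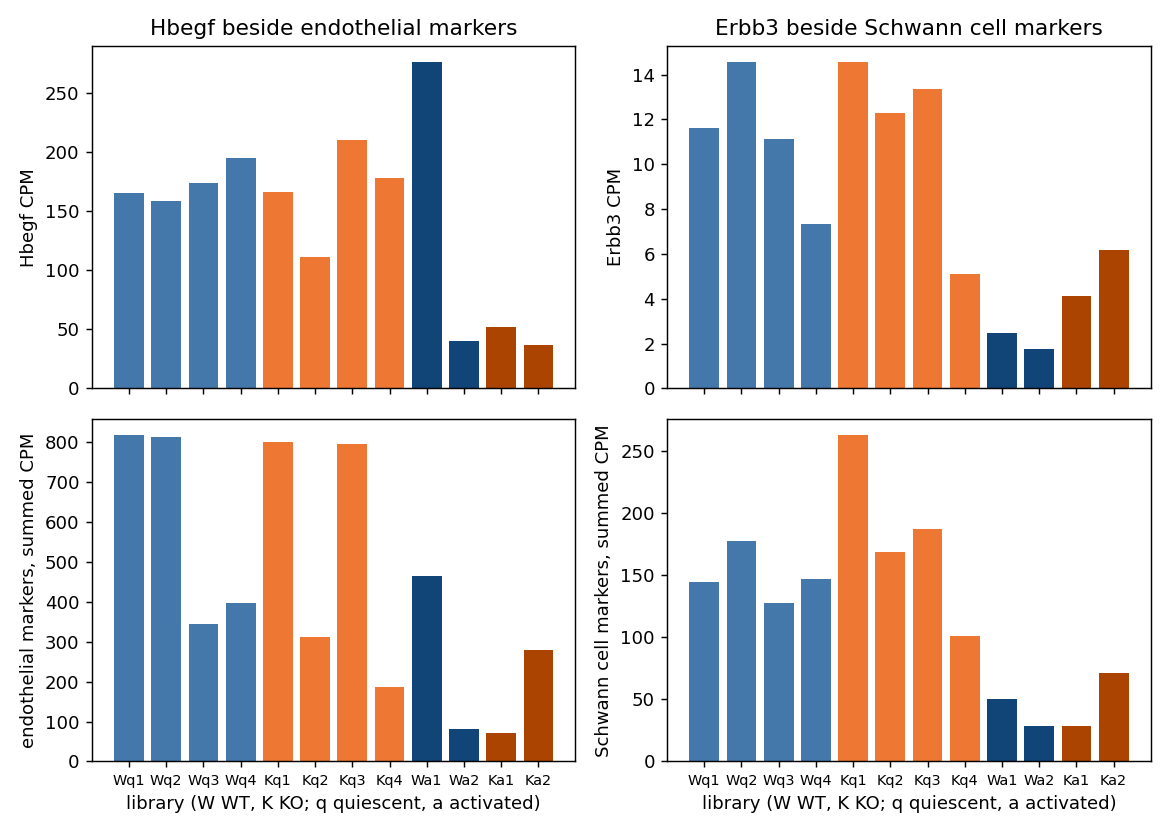
*Hbegf* with the summed CPM of 5 endothelial markers (left) and *Erbb3* with that of 3 Schwann cell markers (right), 1 bar for each of the 12 libraries. *Hbegf* and the endothelial sum are highest among activated libraries in WT library 1, and *Erbb3* and the Schwann cell sum are highest among them in KO library 2, while WT library 1 has a higher Schwann cell sum and less *Erbb3* than KO library 1.

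The other genes of both pathways were taken from lists of 68 genes, of which 67 were tested. On activation 5 were called higher and 18 lower in WT cells, and 3 higher and 20 lower in KO cells, beside 9.65 and 16.5% of all genes in WT and 11.1 and 18.5% in KO. Between KO and WT edgeR called 0 of the 67 in quiescent cells, in activated cells or in the interaction, and DESeq2 on all libraries called 0 in each. At an unadjusted p under 0.05 there were 0, 7 and 5 of the 67, beside 1.74, 8.37 and 6.59% of all genes.

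The proteases that activate HGF and their inhibitors moved mostly down. Of 8 tested, 4 were called lower and 1 higher in WT, and 6 lower and 1 higher in KO cells. The median log2 fold change was -1.92 in WT and -2.40 in KO cells, or -1.45 and -2.09 with a gene at 0 set at its bound. That of all genes tested was -0.92 and -0.96. *Plat*, tissue plasminogen activator, averaged 154 CPM in WT quiescent and 8.12 CPM in WT activated cells (log2 fold change -4.07 ± 0.62 in WT and -4.80 ± 0.68 in KO). *Plau*, urokinase, averaged 314 and 45.6 CPM in WT (-2.77 ± 0.42 in WT and -2.97 ± 0.42 in KO). The inhibitors of the HGF-activating proteases fell too. *Spint2* averaged 15.9 and 1.25 CPM in WT (-3.53 ± 0.69 in WT and -1.82 ± 0.58 in KO). *Spint1* had no count in any activated library, at least 3.56-fold below its quiescent mean in WT and 5.18-fold in KO (counting error only). *Hgfac*, the HGF activator gene, did not pass the filter.

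The ligand-shedding genes moved both ways, with 1 of 6 called higher and 1 lower in each genotype (median log2 fold change -0.26 in WT and -0.16 in KO). The medians of all genes tested were -0.92 and -0.96. *Adam12*, a metalloprotease that can release HB-EGF, averaged 19.8 CPM in WT quiescent and 68.5 CPM in WT activated cells (1.79 ± 0.56 in WT and 2.2 ± 0.56 in KO). *Rhbdf2*, which helps ADAM17 mature, averaged 144 and 42.6 CPM in WT (-1.74 ± 0.30 in WT and -1.40 ± 0.29 in KO). No other gene of this list was called.

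Of the 18 inhibitors of these receptors and their signal, 5 were called lower and 1 higher in WT, and 6 lower and none higher in KO cells (median log2 fold change -0.62 and -0.76). Among all genes tested, 16.5% were called lower in WT and 18.5% in KO cells, with medians of -0.92 and -0.96. The median of the list thus fell less than that of all genes, while a larger share of its 18 genes was called lower in both genotypes. *Errfi1*, whose product binds and inhibits EGFR and ErbB kinases, was the most abundant of those named, at 5975 CPM in WT quiescent and 981 CPM in WT activated cells (-2.61 ± 0.36 in WT and -2.77 ± 0.37 in KO). *Spry1*, a brake on receptor tyrosine kinase signalling that quiescent satellite cells express, averaged 199 and 39.5 CPM in WT (-2.35 ± 0.29 in WT and -2.13 ± 0.29 in KO). *Lrig1*, which promotes ErbB receptor turnover, averaged 236.5 and 102 CPM in WT (-1.22 ± 0.28 in WT and -1.002 ± 0.27 in KO). *Dusp4*, a phosphatase of MAP kinases, rose in WT from 43.3 to 115 CPM (1.42 ± 0.43) and was not called in KO (0.38 ± 0.45, adjusted p = 0.506).

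Among 23 adaptors and kinases below the receptors, 2 were called higher and 5 lower in WT, and 1 higher and 4 lower in KO cells (median log2 fold change -0.33 and -0.26). All genes tested had medians of -0.92 and -0.96, with 16.5% called lower in WT and 18.5% in KO cells. *Gab1*, the docking protein of MET, averaged 107 CPM in WT quiescent and 20.8 CPM in WT activated cells (-2.31 ± 0.33 in WT and -2.36 ± 0.33 in KO). Its relative *Gab2* averaged 22.4 and 63.9 CPM in WT (1.53 ± 0.33) and was not called in KO (0.23 ± 0.34, adjusted p = 0.610). *Hras* averaged 30.5 and 108 CPM in WT (1.82 ± 0.23 in WT and 1.79 ± 0.23 in KO), and *Braf*, a kinase that RAS proteins activate, averaged 115 and 33.1 CPM (-1.79 ± 0.34 in WT and -1.43 ± 0.33 in KO). The genotype difference in the change of *Dusp4* or *Gab2* was not called in the interaction.

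Among the receptor relatives, *Plxnb1*, a semaphorin receptor that associates with MET, averaged 40.7 CPM in WT quiescent and 10.95 CPM in WT activated cells (-1.89 ± 0.35 in WT and in KO). Of the 4 genes in the list of MSP, its receptor and MET partners, 1 was called lower in WT (median -1.10) and 2 in KO cells (median -2.32). Of 8 genes, the other EGF family ligands and *Erbb4*, 2 were called lower in WT and 1 in KO cells (median -0.21 and -1.12, the latter -0.54 with genes at 0 set at their bound). For both lists, the median of all genes tested was -0.92 in WT and -0.96 in KO cells. *Erbb4*, the other neuregulin receptor, averaged 1.66 CPM in WT quiescent cells and had no count in WT activated ones, at least 4.66-fold lower. *Nrg3* averaged 1.12 CPM and was at least 3.13-fold lower.

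**Figure D5:**
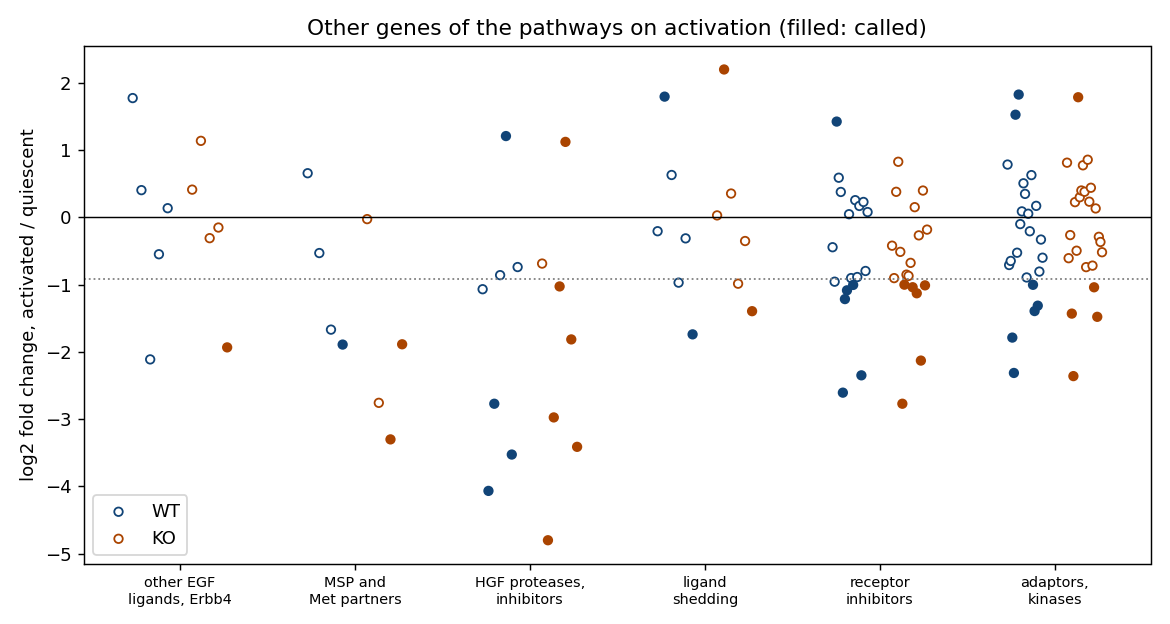
Log2 fold change on activation of the other pathway genes, 1 point a gene, by list and genotype, filled where called, with a dotted line at the median of all genes in WT (-0.92). The 4 genes with no count in an activated group (*Epgn*, *Erbb4*, *Nrg3* and *Spint1*) are left out, and the called HGF proteases and inhibitors lie below the line apart from 1 gene in each genotype.

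The genes whose log2 CPM followed each member most closely over the 12 libraries were taken as a description, since the libraries share state, depth and sex. They were *Set* (Pearson r = 0.990) and *Eif6* (0.989) for *Met*, *Anxa11* (0.989) and *Serinc5* (0.988) for *Egfr*, *Atxn7l2* (0.861) and *Noc4l* (0.847) for *Erbb2*, and *Spint2* (0.980) and *Chl1* (0.974) for *Erbb3*. For the ligands they were *Rdh5* (0.972) and *Sipa1l2* (0.959) for *Hbegf*, *Aagab* (0.909) and *Elavl3* (0.901) for *Hgf*, *Nxpe3* (0.889) and *Pomt1* (0.753) for *Areg*, *Rab3gap2* (0.934) and *Plekhf2* (0.930) for *Ereg*, and *Frg1* (0.850) and *Abcb4* (0.821) for *Nrg1*. The companions of *Met* and *Egfr* were picked for this likeness, so their like change between the states follows from the choice. *Set* averaged 244 CPM in WT quiescent and 911 CPM in WT activated cells, and *Anxa11* 48.1 and 7.51 CPM.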

How the data were processed

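RNA-seq of sorted *Pax7*-ZsGreen+ cells was analysed in 12 libraries. Reads were trimmed with Trim Galore 0.6.0 and mapped to GRCm38.p6 with STAR 2.7.2a, per the submitters' processing notes, and counted by the authors on GENCODE genes with Rsubread. The deposited counts are whole reads with no normalization. A table of FPKM deposited by the authors has 1 value for each group, and how it was scaled is not given in the sources used here. Groups came from the sample labels.

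Genes were filtered with filterByExpr, scaled by TMM and fitted in 1 model of 4 groups with edgeR 4.0.16 (limma 3.58.1, R 4.3.3), tested by the quasi-likelihood F test with Benjamini-Hochberg adjustment over all 25771 genes. SE was the log2 fold change divided by the root of its F. The alternatives were DESeq2 1.42.0 size factors or tests, fits on the compared groups, no filter, a mean count of at least 10, adjusted p alone, a robust fit, a prior count of 2, a replicate block and leaving out each library. The scripts were tested on simulated counts. Per-kilobase levels used GENCODE M21 exons (GRCm38), where the authors used a later release of that build. Named were all 9 genes, up to 4 called genes per list with the largest change in WT, any listed gene called between KO and WT, and for each member the 2 most correlated genes with an average log2 CPM over 1. The 9 genes, the lists and the motifs were chosen with earlier results of these data known. Some marker genes are not reported here.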

Additional observations from a re-analysis of the deposited data

Results flagged for a closer look

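*Areg* in KO quiescent cells had 1 library far from the other 3. KO quiescent library 2 held 3.48 CPM, from 51 counts, and the gap to its nearest neighbour was 0.887 of the range of the group, above Dixon's 95% critical value for 4 samples. It was the 1 flag among 18 groups of 4 libraries examined for the 9 genes, and chance alone flags about 1 in 20 groups.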

How the results depend on the processing

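The calls of *Met* and *Egfr* held under all 22 alternatives in both genotypes, as did that of *Erbb3* in WT cells. With no filter on low counts 1 member, *Hbegf*, was called between KO and WT in activated cells (adjusted p = 0.000144) and 1 in the interaction (0.00995), while the calls over all genes rose from 13 to 332 and from 0 to 170. DESeq2 on all libraries called 1 member and 144 genes in all between KO and WT in activated cells. When single libraries were left out, 3 to 4 members were called on activation in WT and 2 to 4 in KO cells (2 without KO activated library 2), 0 to 1 between KO and WT in activated cells and 0 to 1 in the interaction (1 without WT activated library 2 in both). Where an activated library was left out, the one that remained was assumed to vary like the other groups.

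Some values changed sign. Of these, those of *Hbegf* were also called in part, as given with its results, and no other was called with either sign. Over single libraries left out, the log2 fold change on activation ranged from -0.41 to 0.28 for *Erbb2*, -2.04 to 0.73 for *Hbegf* and -0.071 to 0.57 for *Areg* in WT cells, and from -0.67 to 0.24 for *Erbb2*, -1.79 to 0.82 for *Areg* and -0.17 to 0.41 for *Nrg1* in KO cells. Between KO and WT in activated cells it ranged from -0.65 to 0.23 for *Met*, -0.14 to 0.27 for *Egfr* and -2.71 to 0.062 for *Hbegf*, and the interaction of *Hbegf* from -2.65 to 0.12. *Nrg1* in KO cells was -0.0060 with DESeq2's size factors, -0.00087 with no filter and -0.0031 with DESeq2. The cause was not tested.

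Same-numbered KO and WT libraries deviated together in part (correlations of 0.240, 0.165, -0.266 and 0.587 for the quiescent numbers and -0.071 for the activated pair), so the numbers were not taken as pairs. With the replicate block the counts of called members stayed at 4, 4, 0, 0 and 0, with *Erbb3* called in KO cells (log2 fold change -1.35, adjusted p = 0.0201) and *Ereg* lost there (-1.53, adjusted p = 0.0906), while *Areg* was -0.048 in WT and -0.34 in KO and *Nrg1* -0.14 in KO. Depth limits *Hgf*, *Areg*, *Ereg* and *Nrg1*, which had 0 to 20 counts in the activated libraries.
The interaction was not fitted on the compared groups, since it needs all 4, and edgeR on the activated groups alone filtered out *Ereg*, *Hgf* and *Nrg1*. Adjusted p-values that DESeq2 left undefined were kept out of these counts.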
